A study of Arabidopsis thaliana with 8 samples.

Results

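AT1G14240 and AT1G14250 are adjacent Arabidopsis genes of the nucleoside phosphatase (GDA1/CD39, or apyrase) family, and in 8-week-old stems the transcripts of both were lower in an SND2-overexpressing line than in the wild type. Both were chosen by their 8-week ratios, because the study lists them as differentially expressed in 8-week stems, so these ratios are given as a description, without a test. They are 2 of 7418 genes with a named probe. Each has 1 of the 37685 probes, the AT1G14240 probe named by the platform annotation and the AT1G14250 probe by the probe number in the study's list alone. Of 67 listed probes that the annotation names too, 65 carry the same gene in both. By the transcripts listed for it, the AT1G14240 probe matches 4 transcripts, which are all those of this gene, and the AT1G14250 probe matches the 1 transcript of its gene. Neither has a listed match to the other member or to AT1G14230. The probe sequences were not used here, so cross-hybridization between these related genes was not tested.

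The arrays compared the bottom of the primary inflorescence stem of SND2-OV(A), a homozygous line of ecotype Col-0 that carries the NAC transcription factor gene SND2 under a constitutive double CaMV 35S promoter, with the same tissue of untransformed Col-0 plants of the same age. There were 3 biological replicates at each age. A replicate pooled the stems of several plants per genotype, fewer at 8 weeks than at 4 weeks, and the 8-week plants had been selected on hygromycin as seedlings. The sample labels state hygromycin for both ages, whereas the methods state that none was used at 4 weeks. SND2-OV(A) was a single line, picked for transcriptome analysis because CesA8 transcript was raised in it. Each age had 4 two-colour arrays, with replicate 1 hybridized in both dye orientations, replicate 2 with the line in Cy3 and replicate 3 with the line in Cy5. The deposited values are log2 ratios with the line over the wild type, so a negative value means less signal in the line. They hold no intensities, so neither the level of a transcript nor markers of the stem could be checked. In bulk stem RNA fewer cells that express a gene and less transcript per cell cannot be told apart.

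Apyrases remove the terminal phosphates of nucleoside tri- and diphosphates. In plants they are known from the Golgi apparatus, where they clear nucleotides released by glycosylation, and for limiting extracellular ATP, a signal that surface receptor kinases perceive. The best-studied family members in Arabidopsis, APY1 and APY2, are required together for normal growth. The GDA1 and CD39 of the family name are a yeast Golgi enzyme and a mammalian cell-surface enzyme.

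AT1G14240 was lower in the line on every array of the 8-week stems. Its log2 ratio was -0.78 and -0.68 on the dye-swapped arrays of replicate 1, -0.85 in replicate 2 and -1.31 in replicate 3. Replicate 3 stood lowest and the other replicates lay close together. With the arrays of replicate 1 averaged, the mean was -0.96 ± 0.31 (SD, n = 3), that is 51.3% of the wild type level.

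AT1G14250 was reduced further. Its log2 ratio was -1.17 and -1.16 on the arrays of replicate 1, -0.98 in replicate 2 and -1.59 in replicate 3, so that replicate 3 was again the lowest and replicate 2 the highest. The mean was -1.25 ± 0.31 (SD, n = 3), or 42.1% of the wild type. The exchange of dyes in replicate 1 moved AT1G14250 by less than 0.01 and AT1G14240 by 0.10 on the log2 scale, against a median of 0.25 over all probes at this age. At 4 weeks the exchange moved AT1G14250 by 0.09 and AT1G14240 by 0.34, the second of these above the median of 0.26. AT1G14250 lay below AT1G14240 on each of the 4 arrays, by 0.28 ± 0.15 on average over the replicates (SD, n = 3).

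**Figure D1:**
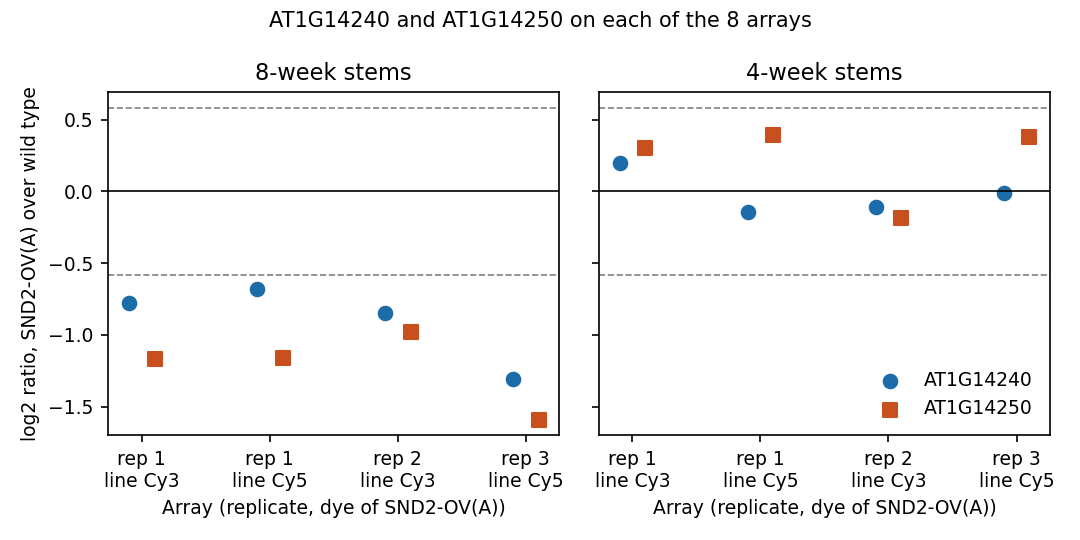
Log2 ratio, SND2-OV(A) over wild type (vertical axis) for AT1G14240 (circles) and AT1G14250 (squares) on each array of the 8-week and 4-week stems, with replicate and dye of the line on the horizontal axis and dashed lines at a fold change of 1.5. All 8 points of the 8-week stems lie below the lower dashed line, from -0.68 to -1.59, and all 8 of the 4-week stems lie between the dashed lines.

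At 4 weeks neither gene differed from the wild type by more than the spread between replicates. These arrays did not enter the choice of the genes. AT1G14240 had log2 ratios of 0.20 and -0.14 on the arrays of replicate 1, -0.11 in replicate 2 and -0.01 in replicate 3. The values lay on both sides of 0, with a mean of -0.03 ± 0.07 (SD, n = 3) and a 95% interval in limma of -0.31 to 0.25 (adjusted p = 1.00 over all probes). The 8-week mean of -0.96 lies below this interval, but that mean chose the gene, so this is no test of the ages.

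AT1G14250 had log2 ratios of 0.31 and 0.40 on the 4-week arrays of replicate 1, -0.18 in replicate 2 and 0.38 in replicate 3. It was thus higher in the line in replicates 1 and 3 and lower in replicate 2. The mean was 0.18 ± 0.32 (SD, n = 3), with a 95% interval in limma of -0.26 to 0.62 and an adjusted p = 1.00. The interval thus takes in increases up to its upper bound. The 8-week mean of -1.25 lies below it, but that mean chose the gene here too. The mean rested on single replicates, at 0.37 without replicate 2, 0.10 without replicate 1 and 0.08 without replicate 3. The difference between the genes, 0.21 ± 0.25 with AT1G14250 above, was smaller than its spread (SD, n = 3).

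The 8-week ratios stood below the 4-week ratios for both genes with no overlap between arrays. The difference, 8 minus 4 weeks, was -0.93 ± 0.19 for AT1G14240 and -1.43 ± 0.23 for AT1G14250 (SE from one limma fit of 6 replicate ratios), given without a test because the 8-week values chose the genes. All 4 arrays of the older stems below all 4 of the younger was found for 430 of 37685 probes, or 1.14%. Age cannot be told apart from the 2 separate experiments, which also differed in selection and pool size. By the study's account the 4-week stems were little taller than the length taken for RNA. The part of the stem sampled may therefore also differ between the ages.

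The ratio of SND2 itself differed between the ages. The SND2 probe had log2 ratios of 7.25, 5.23 and 7.60 in replicates 1 to 3 at 8 weeks, against 2.97, 2.75 and 3.37 at 4 weeks, so it stood higher at 8 weeks in every replicate. By the study's account this spot was saturated at 8 weeks, in which case its ratios there are lower bounds and the replicates cannot be ordered by them. Without intensities, a difference in the line and one in the wild type cannot be told apart. The part of the SND2 level in these differences was not tested.

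The place of the genes among all probes depended on 1 array. On the array that carried replicate 1 in Cy5 the log2 ratios had an SD over probes of 1.01, against 0.31 to 0.35 on the other arrays of 8-week stems, and 506 probes lay below -3 there, against at most 2 on any other array of that age. With all arrays 476 probes had a lower 8-week mean than AT1G14240 and 328 a lower mean than AT1G14250. Without the wide array these numbers were 64 and 11, or 0.17% and 0.0292% of probes, while the means of both genes hardly moved, at -0.98 for AT1G14240 and -1.25 for AT1G14250. The genes were chosen on 8-week ratios, so a low place at that age follows in part from the choice. At 4 weeks 41.8% of probes had a lower mean than AT1G14240 and 90.0% a lower mean than AT1G14250.

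**Figure D2:**
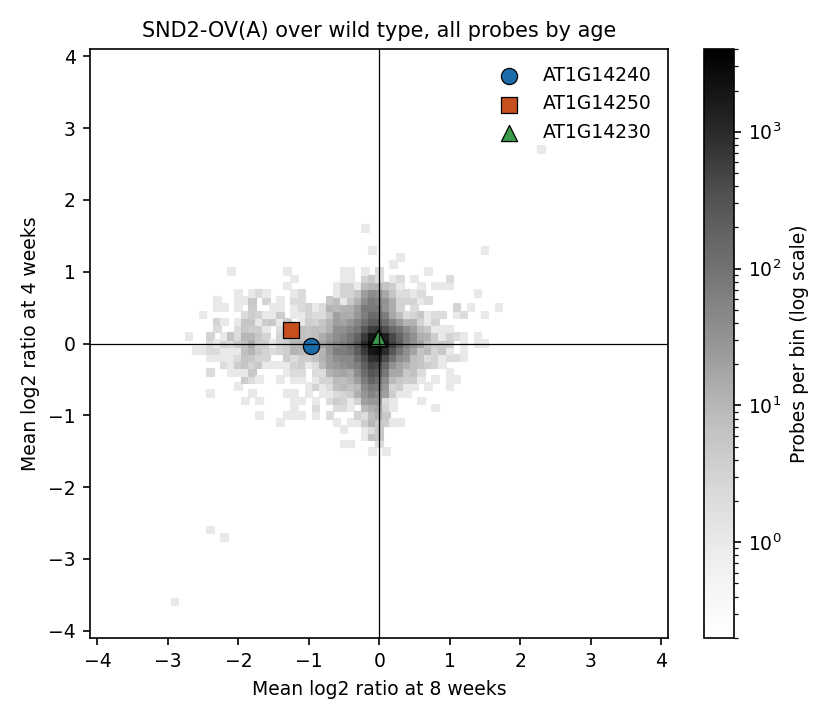
Mean log2 ratio of SND2-OV(A) over wild type at 8 weeks (horizontal axis) and at 4 weeks (vertical axis) for all probes, binned and shaded on a log scale by the number of probes per bin, with AT1G14240, AT1G14250 and their neighbour AT1G14230 marked. The SND2 probe lies outside the axes. AT1G14240 and AT1G14250 lie at -0.96 and -1.25 at 8 weeks and near 0 at 4 weeks, and AT1G14230 lies near 0 at both ages.

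Few probes were this much lower in the line on every array at 8 weeks. A decrease over 1.5-fold on all 4 arrays was found for 14 probes, 0.0372% of the total, and both genes are among them. Both were chosen on these same ratios, so their place among the 14 follows in part from the choice. Their spread between replicates at 8 weeks was not small. The SD was above that of 77.2% of probes for AT1G14240 and 78.1% for AT1G14250. By the mean alone, a decrease over 1.5-fold was found for 2.76% of probes, and for 1.72% with all 3 replicates below 0. When a call needed both a 1.5-fold change and an adjusted p under 0.05 in limma, 0 of 37685 probes were called at 8 weeks (0%), where 1319 had an unadjusted p under 0.05 (3.5%). At 4 weeks the counts were 0 (0%) and 374 (0.992%), and 0 probes (0%) were called for the difference between the ages. SND2, the overexpressed gene, was thus not called either, with an adjusted p in limma of 0.44 at 8 weeks and 0.41 at 4 weeks. A probe that was not called here is therefore not shown to be unchanged. The study's own limma analysis, with the same limits, did report genes as changed at 8 weeks. Why its calls differ from the count here was not examined.

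Some of the 14 probes were lower at both ages. Of the 14, 4 were also over 1.5-fold lower on all 4 arrays of the 4-week stems, 0.0106% of all probes. These were MRD1 (AT1G53480), with means of -2.37 at 8 weeks and -2.58 at 4 weeks, AT3G01345, AT3G50380 and AT2G14878. AT1G14240 and AT1G14250 belong with the 5 probes whose 4-week mean lay within 0.2 of 0. The others of these 5 were MLP28 (AT1G70830), a protein of the major latex protein-like family, with means of -1.26 at 8 weeks and 0.19 at 4 weeks, XPO1B (AT3G03110), an exportin, with -0.80 and -0.16, and a probe without a name here, with -1.28 and 0.15. The age difference of these probes was not tested, as they were picked for their 8-week values.

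**Figure D3:**
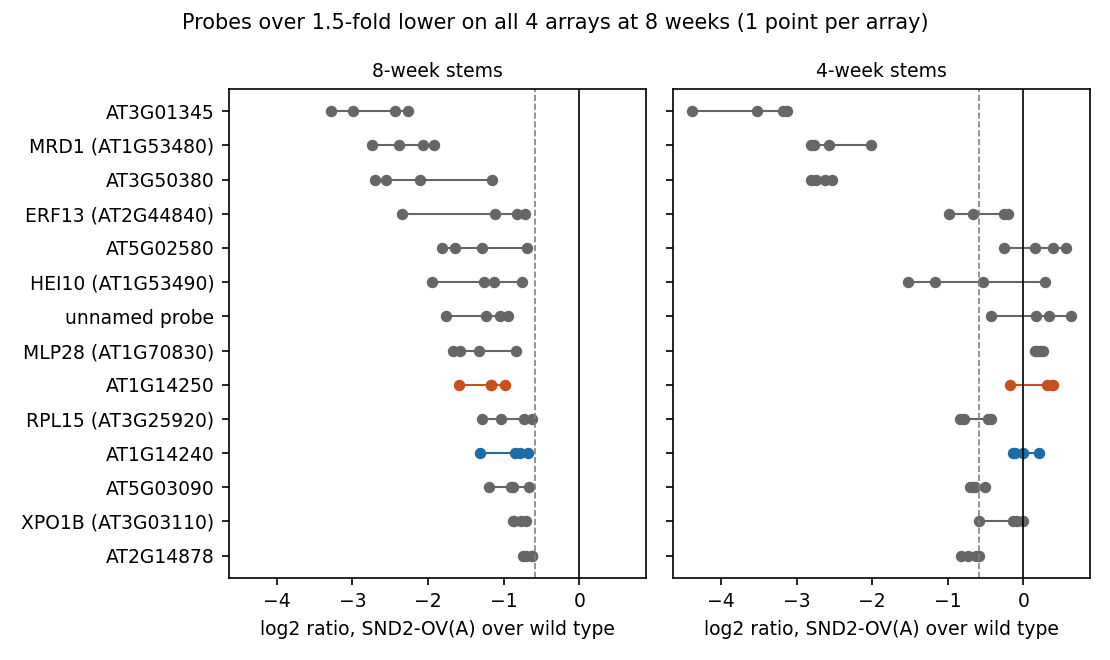
Log2 ratio, SND2-OV(A) over wild type (horizontal axis) on each of the 4 arrays at 8 weeks and at 4 weeks for the 14 probes over 1.5-fold lower on all 4 arrays at 8 weeks, 1 point per array and a line over their range, with a dashed line at a 1.5-fold decrease. AT1G14240 and AT1G14250 straddle 0 at 4 weeks, whereas AT3G01345, MRD1 and AT3G50380 lie below -2 on all 4 arrays there.

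The decrease did not extend to AT1G14230, the gene next to AT1G14240 on its other side. AT1G14230 is counted with the apyrase family in the list used here. The gene annotation gives no symbol to it, nor to AT1G14240 or AT1G14250. Its log2 ratio at 8 weeks was -0.26 and 0.06 on the arrays of replicate 1, -0.03 in replicate 2 and 0.09 in replicate 3, with values on both sides of 0. The mean was -0.01 ± 0.10 (SD, n = 3) and the 95% interval in limma was -0.26 to 0.23 (adjusted p = 1.00). At 4 weeks the mean was 0.08 ± 0.14 (SD, n = 3).

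The other measured neighbours were also close to the wild type. From AT1G14200 to AT1G14300 the RefSeq annotation of assembly TAIR10.1 holds 12 protein-coding genes in order, of which 6 have a named probe, the pair included. The 4 measured neighbours had 8-week means from -0.06 to 0.08 and 4-week means from -0.08 to 0.08. Of these 4, limma called 0 at either age, as it did of all 37685 probes (0%), and 0 had an unadjusted p under 0.05, against 3.5% of all probes at 8 weeks and 0.992% at 4 weeks, so these counts do not set the 4 apart from other probes. AT1G14200 had the highest mean at 8 weeks, 0.08 ± 0.25, and AT1G14300 the lowest, -0.06 ± 0.07 (SD, n = 3). AT1G14260, which follows AT1G14250, has no probe with a name here, and nor have AT1G14270, PKS2 (AT1G14280), a phytochrome kinase substrate, and SBH2 (AT1G14290), a sphingoid base hydroxylase, so how far the decrease reaches on that side was not analysed.

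**Figure D4:**
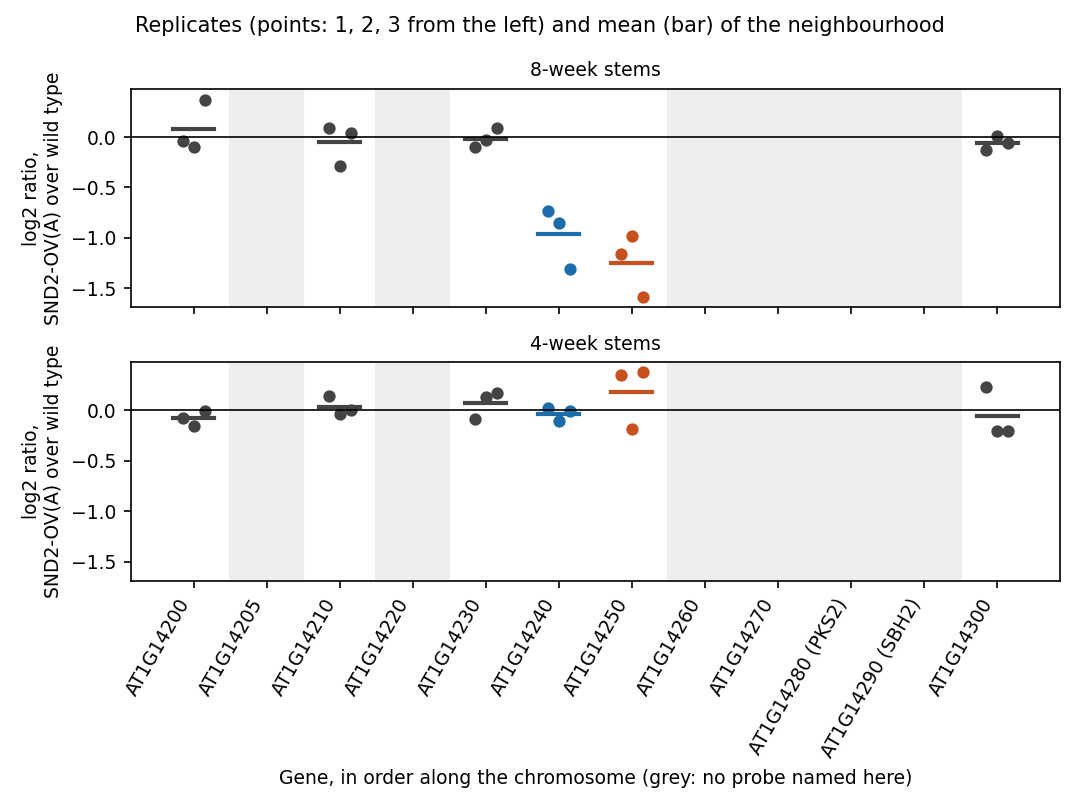
Log2 ratio, SND2-OV(A) over wild type (vertical axis) in each replicate (points, replicates 1 to 3 from the left) and on average (bars) for the genes from AT1G14200 to AT1G14300 in chromosome order (horizontal axis), for 8-week stems above and 4-week stems below, with genes that have no named probe shaded grey. At 8 weeks AT1G14240 and AT1G14250 lie at -0.96 and -1.25 and the 4 measured neighbours between -0.06 and 0.08.

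Adjacent genes that were both this much lower were rare among those measured. Of 2170 pairs of neighbouring protein-coding genes with a named probe each, 3 had both genes over 1.5-fold lower at 8 weeks and 8 had both over 1.5-fold higher. The 3 include AT1G14240 and AT1G14250, which were chosen by their 8-week ratios, so the count is a description. Genes named only through the study's lists are known here because they were called, so this count favours pairs that changed. Among the 2072 pairs named by the annotation alone, the counts were 1 lower and 0 higher. The lower pair there was AT2G38380 and AT2G38390, as AT1G14250 is named by the study's list alone. AT1G14240 and AT1G14250 differed from each other by 0.28 at 8 weeks. The median difference within neighbouring pairs was 0.14, but it covers all 2170 pairs, changed or not. Within the other lower pairs the difference was 1.27 (AT1G53480 and AT1G53490) and 0.84 (AT2G38380 and AT2G38390).

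Of the rest of the family and of nucleotide metabolism little was measured. Of 7 genes listed as apyrases, 3 had a named probe, AT1G14230, AT1G14240 and AT1G14250, and APY1, APY2 and the remaining members were not analysed. Of 30 genes for extracellular ATP perception and for nucleoside transport and salvage, 2 had a named probe. limma called 0 of them at either age, where it called 0% of all probes, so the count says nothing particular about these genes. AT1G02630, listed as a nucleoside transporter, had log2 ratios of 0.22, 0.06 and 0.43 at 8 weeks and UPP (AT3G53900), a uracil phosphoribosyltransferase, of 0.17, -0.18 and 0.28. Their means of 0.23 ± 0.19 and 0.09 ± 0.24 (SD, n = 3) lay on the other side of 0 from the pair, where the median over all probes was -0.03. At 4 weeks the means were 0.11 ± 0.29 and 0.01 ± 0.25. None of the 4 secreted acid phosphatase genes listed had a named probe.

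The genes nearest to the pair over the 6 replicate ratios were mostly other genes lowered at 8 weeks. Nearness was the root mean square difference of the log2 ratios, ranked over the named probes. For AT1G14250 the nearest was MLP28, at 0.28, and AT1G14240 was the second, at 0.30, followed by ARPN (AT2G02850), a plantacyanin, AT2G18370 and RWP1 (AT5G41040), a feruloyl transferase of suberin synthesis. The median over the 7627 other named probes was 0.95. AT1G14240 was nearest to AT2G29310, a putative tropinone reductase, at 0.22, followed by AT2G21100, XPO1B, AT1G18910 and the carboxypeptidase-like gene SCPL43 (AT2G12480), and AT1G14250 was the ninth, at 0.30, against a median of 0.74. The 6 ratios fall into 2 ages, so the measure mainly reflects a decrease at 8 weeks with a ratio near 0 at 4 weeks. It rests on named probes, which include the study's list of genes changed at 8 weeks.

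Genes of touch and early stress were high in replicate 3 at 8 weeks, in which both members were lowest. The 3 measured genes of a list of 6, XTH22 (listed as TCH4, AT5G57560), ORA47 (AT1G74930) and ZAT12 (listed as RHL41, AT5G59820), had log2 ratios of 3.82, 3.74 and 2.47 in replicate 3 at 8 weeks. Over these 3 genes the median was 3.74 in that replicate, -0.41 in replicate 1 and 0.15 in replicate 2. At 4 weeks replicate 2 had the lowest median, -2.01, against 1.12 for replicate 1 and -0.24 for replicate 3. By replicate averages both members were also lowest in replicate 2 at 4 weeks. For AT1G14240 the lowest single array there was replicate 1 in Cy5, at -0.14 against -0.11 in replicate 2. An order of 3 replicates at each age cannot settle a relation between these genes and the members. Of the 3 genes, 2 are named only through the study's list. Without replicate 3 the 8-week mean was -0.79 for AT1G14240 and -1.07 for AT1G14250. The part of handling in these ratios was not tested. Markers of leaf, flower and seed had no named probe.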

How the data were processed

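The deposited table holds a log2 ratio, line over wild type, for each probe on each of 8 Agilent Arabidopsis arrays. Scanning was on an Axon scanner, and the authors used GenePix Pro for feature extraction and limma and R for normalization. The normalization is described in the methods by reference to earlier work, and its steps were not examined here. Direction was checked with the SND2 probe, which was above 0 on all 8 arrays of both dye orientations.

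The arrays of replicate 1 were averaged, leaving n = 3 per age. limma 3.58.1 (R 4.3.3; lmFit and eBayes, intercept only) was fitted per age to all 37685 probes without a filter, with Benjamini-Hochberg adjustment, and to 6 ratios for 8 minus 4 weeks. The fit was tested on simulated data. Genes were assigned to 7440 probes by the platform annotation and to 7628 with the study's lists. Genes named in the text were the pair, their neighbours, the listed genes, those within 5 places by nearness, and those behind small counts, chosen after their values were seen. The members and lists were chosen with earlier results of these data known. Protein and promoter sequences were not used here. With 3 replicates per age, the number of arrays limits the precision. Python 3.11.15, pandas 2.3.3, numpy 2.4.6 and matplotlib 3.10.9 were used.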

Additional observations from a re-analysis of the deposited data

How the results depend on the processing

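The 8-week means and the differences between the ages of AT1G14240 and AT1G14250 kept their direction under every alternative run. They also moved by less than the spread between replicates. Leaving out 1 of 3 replicates cannot move a mean by more than that spread. The fit of both ages and the replicate block leave the estimates as they are. For these settings the size of the move is therefore no test. Leaving out 1 replicate gave 8-week means from -1.08 to -0.79 for AT1G14240 and from -1.38 to -1.07 for AT1G14250. The 4-week mean of AT1G14240 lay so close to 0 that its sign turned with only the Cy3 array of replicate 1 (0.0273), and leaving out 1 replicate gave -0.0592 to 0.00958, above 0 without replicate 2. That of AT1G14250 was 0.08 to 0.37 with 1 replicate left out, against 0.18 with all, and was highest without replicate 2 (unadjusted p = 0.0543, adjusted p = 0.995 in limma). Neither gene passed at 4 weeks under any alternative. The count of probes called changed in few settings. With both ages in one fit 2 probes were called at 8 weeks, SND2 and MRD1, and 2 at 4 weeks, MRD1 and AT3G50380. With all 4 arrays as separate samples 2 were called at 4 weeks, and leaving out 1 replicate gave 0 to 3 at 8 weeks. The count of probes over 1.5-fold lower with every replicate below 0 at 8 weeks was 648, against 237 over 2-fold and from 727 to 1240 with 1 replicate left out. Whether the replicate numbers pair the samples across the ages is not settled by these data. Deviations of same-numbered replicates correlated weakly, at -0.02, 0.12 and 0.16, while 4 of 6 matched their own number best. With a replicate block the differences stayed at -0.93 (SE 0.18) for AT1G14240 and -1.43 (SE 0.26) for AT1G14250, and 0 probes were called, as without it. Signal over background is not known here.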

Other observations

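A pair of other neighbouring genes was over 1.5-fold lower in SND2-OV(A) at 8 weeks alongside AT1G14240 and AT1G14250. MRD1 (AT1G53480) and HEI10 (AT1G53490), a protein of meiotic crossing over averaged over its probes, had 8-week means of -2.37 ± 0.37 and -1.11 ± 0.73 (SD, n = 3) and 4-week means of -2.58 ± 0.17 and -0.67 ± 0.46, so that both lay below 0 at both ages. AT2G38380 and AT2G38390 formed the remaining pair, the only one of the 3 named by the annotation alone, with 8-week means of -1.60 ± 1.55 and -0.76 ± 0.77 and 4-week means of 0.30 ± 0.40 and -0.14 ± 0.45. Their spread at 8 weeks was about as large as their means. For AT1G14240 and AT1G14250 the spread was smaller than the means. These 2 genes were chosen because the study called them at 8 weeks, which favours a small spread, so this contrast follows in part from the choice. The other pairs were picked for their 8-week values and were not tested.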
